A study of Mus musculus with 8 samples.

Results

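Receptors and lectins by which spleen macrophages capture microbes, serum glycoproteins and dying cells were followed here through 10 genes, Marco, Siglec1, Cd209b, Mrc1, Fcna, Vsig4, Timd4, Axl, Mertk and Adamdec1. A gene was included by its symbol, on a probe set assigned to that symbol alone, and all 10 were found, 1 probe set each, among 19938 genes measured in this way. A mean log2 intensity above 5.01, the level below which 25% of the measured genes lay, was required for testing. It was passed by 14953 genes and by 9 of the 10, all but Vsig4.

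RNA was measured on Affymetrix Mouse Gene 1.0 ST arrays, 1 array for the splenocytes of each of 8 mice, all with a C57/B6 strain background. The WT group held 2 mice without the lupus-susceptibility genotype. The Sle1.3 group held 3 mice of that genotype, which the labels call lupus mice, and the Sle1.3/E2-2het group held 3 Sle1.3 mice haplodeficient for E2-2. E2-2, the product of Tcf4, is a transcription factor needed by plasmacytoid dendritic cells, and the labels describe these cells as not functional in the Sle1.3/E2-2het mice. The haplodeficiency is given for the whole animal, with no driver for a cell type and with no group of E2-2 haplodeficient mice lacking Sle1.3. No age was given in the sources used here. Spleens were digested with collagenase and DNase, and the splenocytes were not sorted, so in every value below fewer macrophages and less RNA per macrophage cannot be told apart.

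In the spleen, macrophages of separate zones carry separate receptors. Marginal zone macrophages bear the scavenger receptor Marco and the lectin Cd209b (SIGN-R1), which take particles and polysaccharides from the blood, and marginal metallophilic macrophages bear Siglec1 (CD169), a lectin for sialic acid. Red pulp macrophages clear worn red cells, recycle their iron and bear the mannose receptor Mrc1, while Axl, Mertk and Timd4 bind phosphatidylserine on dying cells, Axl and Mertk through the bridging proteins Gas6 and protein S.

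The sequences just upstream of 4 of the genes are shown because their values ran together in pairs over 6 of the arrays. Pearson correlations were highest for Mrc1 with Fcna and for Axl with Mertk. Each is the 250 bases before the gene's start on the gene's own strand, from the RefSeq promoter table of build GRCm38.p6, in which 8 of the 10 genes were found and Siglec1 and Adamdec1 were not listed. The windows are chr2:14229164-14229413 on the plus strand for Mrc1, chr2:25627975-25628224 on the minus strand for Fcna, chr7:25788734-25788983 on the minus strand for Axl and chr2:128698665-128698914 on the plus strand for Mertk. Capitals mark a match to a searched motif.
Mrc1: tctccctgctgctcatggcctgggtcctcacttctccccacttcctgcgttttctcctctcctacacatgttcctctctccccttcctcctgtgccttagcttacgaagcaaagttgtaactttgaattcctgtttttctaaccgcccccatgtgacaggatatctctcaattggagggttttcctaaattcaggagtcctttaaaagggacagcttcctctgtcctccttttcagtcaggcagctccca
Fcna: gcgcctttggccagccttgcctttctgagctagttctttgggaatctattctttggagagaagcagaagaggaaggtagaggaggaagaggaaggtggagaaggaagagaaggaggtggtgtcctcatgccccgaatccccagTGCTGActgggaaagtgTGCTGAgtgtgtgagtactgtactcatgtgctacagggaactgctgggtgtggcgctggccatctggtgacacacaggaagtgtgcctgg
Axl: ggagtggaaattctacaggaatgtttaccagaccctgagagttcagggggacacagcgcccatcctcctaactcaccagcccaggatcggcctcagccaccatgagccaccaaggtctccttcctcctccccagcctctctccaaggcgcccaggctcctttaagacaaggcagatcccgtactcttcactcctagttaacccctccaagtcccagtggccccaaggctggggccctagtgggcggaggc
Mertk: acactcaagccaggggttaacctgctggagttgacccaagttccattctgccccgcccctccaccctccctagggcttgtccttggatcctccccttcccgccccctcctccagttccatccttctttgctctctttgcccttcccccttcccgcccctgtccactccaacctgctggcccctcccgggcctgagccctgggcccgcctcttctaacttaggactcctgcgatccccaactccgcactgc

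The searched motifs, on both strands, were the nuclear receptor motif AGGTCA, the Spi1 motif GAGGAAGT, the Maf motif TGCTGA, an interferon response element (GAAA and GAAA separated by a pair of bases) and the TATA box TATAAA. In Fcna, TGCTGA stood 107 and 90 bases before the gene's start, and Timd4 also held it, so 2 of the 8 windows had this motif against 16.1% of 32851 promoters of the same length. Timd4 was the 1 window with AGGTCA, against 14% of all promoters. The Spi1 motif (2.44% of all promoters), the interferon response element (2.98%) and the TATA box (12.4%) were found in 0 of the 8. The Mrc1, Axl and Mertk windows held none of these letters, so no searched motif was shared among the windows shown. GC made up 49.6% of the Mrc1 window, 54.4% of Fcna, 60% of Axl and 63.6% of Mertk.

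Features of the arrays bear on every value. Both arrays labelled replicate 3 had lowest intensities of 10.9 and 11.2, against 4.57 to 5.11 on the other 6 arrays, and are called the second array set, a grouping seen in the values and not given by the labels. Both also had high Xist (11.90 and 11.82), like Sle1.3 replicates 1 and 2 (10.77 and 10.68), while WT and Sle1.3/E2-2het replicates 1 and 2 lay between 3.75 and 4.29. The array labelled Sle1.3 replicate 3 is labelled male but had Y-linked Kdm5d, Uty and Eif2s3y at 4.19, 4.27 and 3.83, near the arrays labelled female. Tcf4 was 9.02 and 8.80 in WT, 8.67, 8.63 and 9.06 in Sle1.3, and 8.18, 8.13 and 9.25 in the arrays labelled Sle1.3/E2-2het, so the array labelled Sle1.3/E2-2het replicate 3 went against its genotype label. Whether the probe set covers the deleted part of Tcf4 was not given. Values of the 10 genes without the second array set, hence without both doubtful arrays, are therefore given as well. In Sle1.3 against WT, genotype and high Xist cannot be told apart, because all 3 Sle1.3 arrays and neither WT array had it.

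**Figure D1:**
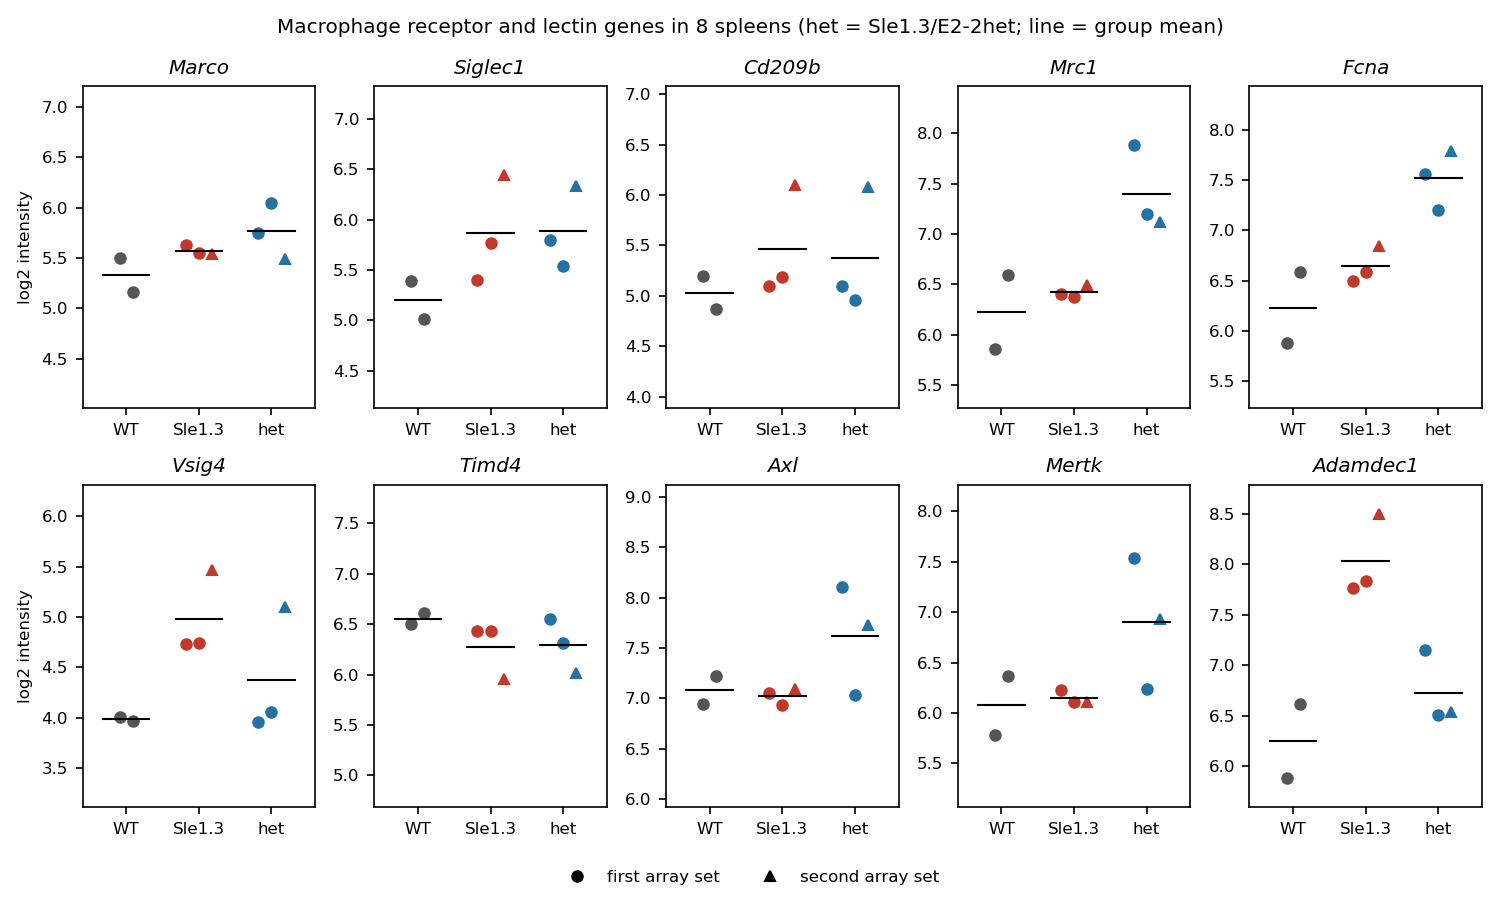
Log2 intensity of the 10 genes (vertical axes, each spanning the same log2 range) by genotype (WT, 2 arrays; Sle1.3, 3 arrays; Sle1.3/E2-2het, marked het, 3 arrays). Points are arrays, triangles mark the second array set and lines are group means. Mrc1 and Fcna lie highest in the 3 Sle1.3/E2-2het arrays, Adamdec1 lies highest in the 3 Sle1.3 arrays, and Siglec1, Cd209b and Vsig4 lie highest in the triangles.

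Mrc1 and Fcna had their highest values in the Sle1.3/E2-2het spleens and were higher there than in WT. Mrc1 (chromosome 2) encodes the mannose receptor, an endocytic lectin of tissue macrophages. Its log2 intensity was 5.86 and 6.60 in WT, 6.40, 6.37 and 6.49 in Sle1.3, and 7.88, 7.20 and 7.12 in Sle1.3/E2-2het. Every Sle1.3/E2-2het array lay above every array of the other groups, and WT and Sle1.3 overlapped. Group means were 6.23 ± 0.52 (SD, n = 2), 6.42 ± 0.06 (SD, n = 3) and 7.40 ± 0.42 (SD, n = 3). Mrc1 was 2.25-fold higher in Sle1.3/E2-2het than in WT (log2 difference 1.17, SE 0.27, adjusted p = 0.0298, limma with Benjamini-Hochberg adjustment over all genes tested, as in every test here).

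Fcna (chromosome 2) encodes ficolin A, a soluble lectin of the complement system made by macrophages. Its values were 5.88 and 6.59 in WT, 6.50, 6.59 and 6.84 in Sle1.3, and 7.56, 7.20 and 7.79 in Sle1.3/E2-2het, so these arrays again lay above all the others. Means were 6.23 ± 0.50 (SD, n = 2), 6.64 ± 0.18 (SD, n = 3) and 7.52 ± 0.29 (SD, n = 3). The difference between Sle1.3/E2-2het and WT was 1.29 (SE 0.25, adjusted p = 0.0175, 2.44-fold). Sle1.3 and WT differed by 0.19 (SE 0.27, adjusted p = 0.681) for Mrc1 and by 0.41 (SE 0.25, adjusted p = 0.340) for Fcna, neither past the threshold of 0.05 (0.16 and 0.31 in the first array set).

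Within the first array set, where all 4 arrays compared had low Xist, Sle1.3/E2-2het exceeded WT by 1.31 (SE 0.26, adjusted p = 0.00522) for Mrc1 and by 1.15 (SE 0.22, adjusted p = 0.00486) for Fcna. Leaving out the array labelled Sle1.3/E2-2het replicate 3 alone gave an adjusted p of 0.0124 for Mrc1 and 0.0145 for Fcna. The calls rested on other single arrays. Mrc1 missed the threshold without WT replicate 1 (0.80, adjusted p = 0.180), WT replicate 2 (1.54, adjusted p = 0.136), Sle1.3/E2-2het replicate 1 (0.93, adjusted p = 0.0843) or replicate 2 (1.27, adjusted p = 0.0589), and when dim genes were kept (adjusted p = 0.0505). Fcna missed it without WT replicate 1 (0.93, adjusted p = 0.131), WT replicate 2 (1.64, adjusted p = 0.115) or Sle1.3/E2-2het replicate 1 (1.26, adjusted p = 0.0510).

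Against Sle1.3, the Sle1.3/E2-2het values of both genes were higher in each of the 3 pairs of arrays with the same replicate number. The paired log2 differences were 1.48, 0.83 and 0.63 for Mrc1 and 1.06, 0.62 and 0.94 for Fcna. The mean differences were 0.98 (SE 0.24, adjusted p = 0.337) and 0.87 (SE 0.22, adjusted p = 0.382), short of the threshold in the fit without pairing. With the replicate number as a block, a pairing taken from these same data, both passed (adjusted p = 0.0352 for Mrc1 and 0.0203 for Fcna). With the array set as the block these were 0.0705 and 0.0481. In the first array set alone the differences were 1.15 (adjusted p = 0.104) and 0.84 (adjusted p = 0.186). There Sle1.3 had high and Sle1.3/E2-2het low Xist. In the replicate 3 pair, with differences of 0.63 and 0.94, both arrays had high Xist, but that pair is made of both doubtful arrays.

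Of the receptors for dying cells, Axl and Mertk had their highest values in 2 of the 3 Sle1.3/E2-2het arrays, and no comparison of Axl, Mertk or Timd4 passed the threshold in the fit without pairing. Axl (chromosome 7), a receptor tyrosine kinase, measured 6.94 and 7.23 in WT, 7.05, 6.93 and 7.09 in Sle1.3, and 8.11, 7.03 and 7.73 in Sle1.3/E2-2het. Mertk (chromosome 2), its relative in the same kinase family, measured 5.78 and 6.37 in WT, 6.23, 6.11 and 6.11 in Sle1.3, and 7.54, 6.24 and 6.93 in Sle1.3/E2-2het. In both genes the array labelled Sle1.3/E2-2het replicate 2 lay within the range of WT, and replicates 1 and 3 lay above all WT and Sle1.3 arrays. The Sle1.3/E2-2het group means, 7.62 ± 0.54 (SD, n = 3) for Axl and 6.91 ± 0.65 (SD, n = 3) for Mertk, had wider spreads than the Sle1.3 means of 7.03 ± 0.08 and 6.15 ± 0.07 (SD, n = 3 each).

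Against Sle1.3, Axl was at 0.60 (SE 0.24) and Mertk at 0.76 (SE 0.29). Neither passed, with adjusted p = 1.00 and 0.941, or 0.187 and 0.184 with the replicate number as a block. Against WT, the Sle1.3/E2-2het differences were 0.54 (SE 0.27, adjusted p = 0.208) for Axl and 0.83 (SE 0.32, adjusted p = 0.120) for Mertk. With the array set as a block, the adjusted p for Mertk was 0.0562. Within the first set, Axl was at 0.58 (adjusted p = 0.477) against Sle1.3 and 0.48 (adjusted p = 0.192) against WT, and Mertk at 0.72 (adjusted p = 0.463) and 0.82 (adjusted p = 0.0834). Timd4 (chromosome 11), which tethers phosphatidylserine and has no kinase of its own, measured 6.51 and 6.61 in WT, 6.44, 6.43 and 5.96 in Sle1.3, and 6.56, 6.31 and 6.01 in Sle1.3/E2-2het. Its 2 lowest values were those of the second array set. Timd4 differed between Sle1.3 and WT by -0.28 (SE 0.22, adjusted p = 0.450), between Sle1.3/E2-2het and WT by -0.26 (SE 0.22, adjusted p = 0.423) and between the Sle1.3 genotypes by 0.02 (adjusted p = 1.00). Without the second array set these were -0.12 (adjusted p = 0.621), -0.12 (adjusted p = 0.547) and 0.00066 (adjusted p = 0.999).

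Adamdec1 was higher in Sle1.3 than in WT, and its Sle1.3/E2-2het values lay nearer WT. Adamdec1 (chromosome 14) encodes a secreted protein of the ADAM metalloprotease family made by mature dendritic cells and macrophages. It measured 5.88 and 6.61 in WT, 7.77, 7.84 and 8.50 in Sle1.3, and 7.15, 6.50 and 6.53 in Sle1.3/E2-2het. No Sle1.3 array overlapped with either other group, while the WT and Sle1.3/E2-2het ranges did overlap. Means were 6.25 ± 0.52 (SD, n = 2), 8.04 ± 0.40 (SD, n = 3) and 6.73 ± 0.36 (SD, n = 3).

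The Sle1.3 excess over WT was 1.79 (SE 0.30, adjusted p = 0.0108, 3.46-fold), and 1.56 (SE 0.25, adjusted p = 0.00445) in the first array set. It missed the threshold without WT replicate 1 (1.42, adjusted p = 0.119) or without WT replicate 2 (2.16, adjusted p = 0.0912). Sle1.3/E2-2het was below Sle1.3 in each numbered pair, by -0.62, -1.34 and -1.97, with a mean of -1.31 (SE 0.27, adjusted p = 0.236). Blocked by replicate number the adjusted p was 0.0152, and blocked by array set it was 0.0364. Without the second set it was -0.98 (adjusted p = 0.177). Sle1.3/E2-2het and WT differed by 0.48 (SE 0.30, adjusted p = 0.294), and by 0.58 (adjusted p = 0.0983) in the first array set. Within Sle1.3/E2-2het, the 1 array with high Xist, at 6.53, lay between the arrays with low Xist. That array was also of the second array set, and its Tcf4 went against its genotype label. For Adamdec1 in Sle1.3 against WT, genotype and high Xist cannot be told apart.

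Among the genes of the marginal zone, Marco, Siglec1 and Cd209b passed no genotype comparison in the fit without a block. Marco (chromosome 1) measured 5.50 and 5.16 in WT, 5.63, 5.55 and 5.54 in Sle1.3, and 5.75, 6.05 and 5.49 in Sle1.3/E2-2het. Both WT arrays lay below the Sle1.3 arrays, and WT replicate 1 lay level with the array labelled Sle1.3/E2-2het replicate 3. Differences were 0.24 (SE 0.20, adjusted p = 0.484) for Sle1.3 against WT, 0.19 (adjusted p = 1.00) between the Sle1.3 genotypes and 0.43 (SE 0.20, adjusted p = 0.182) for Sle1.3/E2-2het against WT. In the first array set the last comparison passed, at 0.57 (SE 0.17, adjusted p = 0.0293), as it did over all 8 arrays with the array set as a block (0.51, SE 0.17, adjusted p = 0.0356).

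Siglec1 (chromosome 2) measured 5.39 and 5.01 in WT, 5.40, 5.77 and 6.44 in Sle1.3, and 5.80, 5.54 and 6.33 in Sle1.3/E2-2het. Cd209b (chromosome 8), which lies in a family of related Cd209 genes whose transcripts may share probes, measured 5.20 and 4.86, then 5.10, 5.19 and 6.10, then 5.10, 4.95 and 6.08. In both genes the highest values were those of the second array set. Siglec1 differed between Sle1.3 and WT by 0.67 (SE 0.31, adjusted p = 0.224), between Sle1.3/E2-2het and WT by 0.69 (SE 0.31, adjusted p = 0.167) and between the Sle1.3 genotypes by 0.02 (adjusted p = 1.00). Cd209b differed by 0.43 (SE 0.36, adjusted p = 0.483), 0.35 (SE 0.36, adjusted p = 0.522) and -0.08 (adjusted p = 1.00) in the same order. Without the second array set the values against WT were nearer 0. Siglec1 was at 0.38 (adjusted p = 0.194), 0.47 (adjusted p = 0.0764) and 0.089 (adjusted p = 0.875) there, and Cd209b at 0.11 (adjusted p = 0.674), -0.0016 (adjusted p = 0.995) and -0.12 (adjusted p = 0.804).

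The contrast of the array sets themselves, with genotype in the fit, exceeded every genotype difference in size for Siglec1, Cd209b and Timd4. Relative to the first set, the second was higher by 0.76 for Siglec1 (SE 0.16, adjusted p = 0.00475) and by 1.01 for Cd209b (SE 0.13, adjusted p = 0.000678), and lower for Timd4 (-0.45, SE 0.13, adjusted p = 0.0173). These 3 of 9 genes compare with 36.8% of all genes tested, whose median shift was 0.28. After quantile normalization, which brought the median shift to -0.01, the differences were 0.52 for Siglec1 (adjusted p = 0.0367), 0.75 for Cd209b (adjusted p = 0.00395) and -0.75 for Timd4 (adjusted p = 0.00368). Marco then also passed, at -0.54 (adjusted p = 0.0239).

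**Figure D2:**
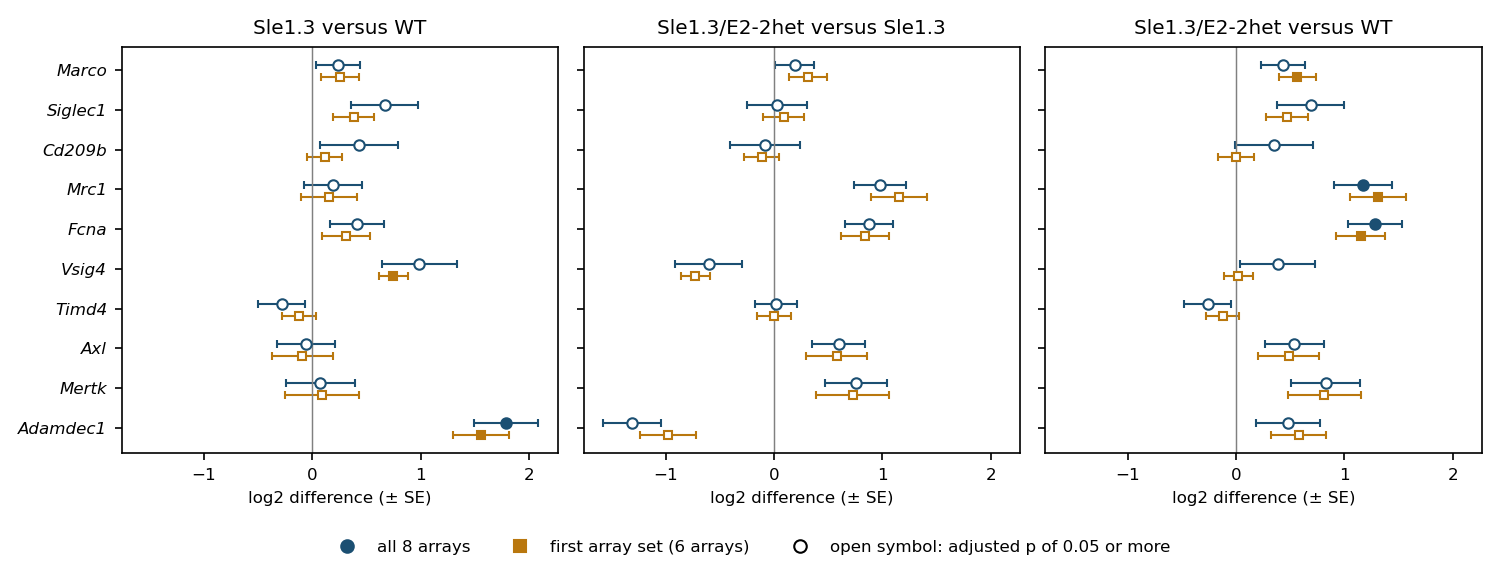
Log2 difference with its standard error (horizontal axis) for each of the 10 genes in the 3 genotype comparisons. Circles are fits to all 8 arrays and squares to the 6 arrays of the first set. Filled symbols have an adjusted p under 0.05, and Vsig4 is from fits that kept dim genes. Adamdec1 is filled in Sle1.3 against WT, and Mrc1 and Fcna are filled in Sle1.3/E2-2het against WT, in circles and squares. The squares of Vsig4 in Sle1.3 against WT and of Marco in Sle1.3/E2-2het against WT are filled as well.

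Vsig4, a complement receptor of tissue macrophages encoded on the X chromosome, had a mean of 4.50, below the filter, and was tested only with dim genes kept. It measured 4.01 and 3.97 in WT, 4.73, 4.74 and 5.46 in Sle1.3, and 3.96, 4.06 and 5.10 in Sle1.3/E2-2het. The 4 arrays with high Xist held 4.73 to 5.46 and the 4 with low Xist held 3.96 to 4.06, with no overlap. All 4 arrays with high Xist lay above the other 4 in 868 of the 19938 measured genes (4.35%), Vsig4 among them. The gap stayed in quantile-normalized values, at 4.76 to 5.19 against 4.08 to 4.24. The highest values were those of the second array set. With genotype in the fit, that set was above the first by 0.91 (SE 0.12, adjusted p = 0.00026), and by 0.52 (adjusted p = 0.00915) after quantile normalization. Within Sle1.3/E2-2het, high Xist and the second array set fell on the same array and cannot be told apart. Sle1.3 against WT gave 0.99 (SE 0.35, adjusted p = 0.147), and Sle1.3/E2-2het against WT gave 0.38 (SE 0.35, adjusted p = 0.444). Sle1.3/E2-2het against Sle1.3 gave -0.61 (SE 0.31, adjusted p = 1.00). The adjusted p of that last comparison was 0.0356 with the replicate block and 0.0608 blocked by array set. In the first array set, Sle1.3 exceeded WT by 0.75 (SE 0.13, adjusted p = 0.00868). Sle1.3/E2-2het and WT, all with low Xist there, differed by 0.02 (SE 0.13, adjusted p = 0.911), and Sle1.3/E2-2het differed from Sle1.3 by -0.73 (adjusted p = 0.0652). There, genotype and high Xist cannot be told apart for Vsig4, because Sle1.3 alone had it.

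Counts over the 9 tested genes were read against all genes tested. In Sle1.3 against WT, 1 of 9 (Adamdec1) passed, where 5.88% of all genes did. Against WT, Sle1.3/E2-2het had 2 of 9 past it (Mrc1 and Fcna, both higher), where 7.2% of all genes did. In Sle1.3/E2-2het against Sle1.3, 0 of 9 passed, where 0.0134% of all genes did (2 genes, with 625 at an unadjusted p under 0.05), and 5 of the 9 had an unadjusted p under 0.05. With the replicate block, 3 of 9 passed (Mrc1 and Fcna higher, Adamdec1 lower), where 1.75% of all genes did, and blocked by array set 2 of 9 did (Fcna and Adamdec1), where 0.615% of all genes did. In the first array set alone, 1 of 9 (Adamdec1) passed in Sle1.3 against WT, 0 in Sle1.3/E2-2het against Sle1.3 and 3 (Marco, Mrc1 and Fcna) in Sle1.3/E2-2het against WT, where 15.8%, 0.528% and 34% of all genes did. With each array's median set equal, the calls over all genes moved from 398 higher of 879 to 640 higher of 2508 in Sle1.3 against WT, and from 517 higher of 1076 to 788 higher of 4131 in Sle1.3/E2-2het against WT. The same 1 and 2 of the 9 genes passed there. That scaling moved the median of all genes in Sle1.3/E2-2het against WT to -0.17.

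Groups without overlap were common among all genes in the comparisons with WT, which had 2 arrays. In Sle1.3 against WT, 4 of 9 genes did not overlap (Marco, Siglec1 and Adamdec1 above, Timd4 below), where 46% of all genes did not. Sle1.3/E2-2het and WT did not overlap in 3 of 9 (Siglec1, Mrc1 and Fcna, all above), where 49.1% of all genes did not. Sle1.3/E2-2het and Sle1.3 did not overlap in 4 of 9 (Mrc1, Fcna and Mertk above, Adamdec1 below), where 7.38% of all genes did not, although Mertk replicate 2 exceeded the highest Sle1.3 value by little (6.24 against 6.23). The median difference of the 9 genes was 0.24, 0.19 and 0.54 for Sle1.3 against WT, Sle1.3/E2-2het against Sle1.3 and Sle1.3/E2-2het against WT, beside 0.03, 0.00 and -0.01 over all genes. These comparisons share the WT, Sle1.3 or Sle1.3/E2-2het arrays and are not independent.

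The genes did not move as 1 group over the 6 arrays of the first set, which span all 3 genotypes. Mrc1 and Fcna ran together (Pearson's r 0.982, Spearman's rho 0.829, and r 0.956 without the 2 arrays farthest from the median of Mrc1). Axl and Mertk also ran together (r 0.978, rho 0.886, and r 0.728 without the 2 farthest arrays), as did Mrc1 and Mertk (r 0.898, rho 0.943, and 0.985). Among the same genes, r was 0.829 for Mrc1 and Axl, 0.835 for Fcna and Mertk, and 0.729 for Fcna and Axl. Without the 2 farthest arrays these were 0.713, 0.0385 and -0.14. Adamdec1 had r between -0.147 (Timd4) and 0.427 (Siglec1) with 8 of the others. With Vsig4, r was 0.823 and rho 0.486, and r was -0.496 without the 2 arrays farthest from the median of Vsig4. These are descriptions over 6 arrays that share genotype differences, and 45 pairs were computed.

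The tested genes whose values ran closest to Marco in those arrays were Creb5, Slc5a11 and Rnf224 (r 0.996 each), with 757 genes above r 0.9. Closest to Siglec1 were Asxl3 (0.995), Ctnnbip1 (0.995) and Pomgnt2 (0.994), with 391 genes above r 0.9. Closest to Cd209b were Lzts1 (0.991), Ina (0.979) and Dip2a (0.977), with 44 genes above r 0.9. For Vsig4 the same ranking gave Xist, Ccdc50 and Cenpx, with rank correlations of 0.886, 0.6 and 0.429. Since its 6 arrays fell into separate clusters, no r is given for that ranking.

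**Figure D3:**
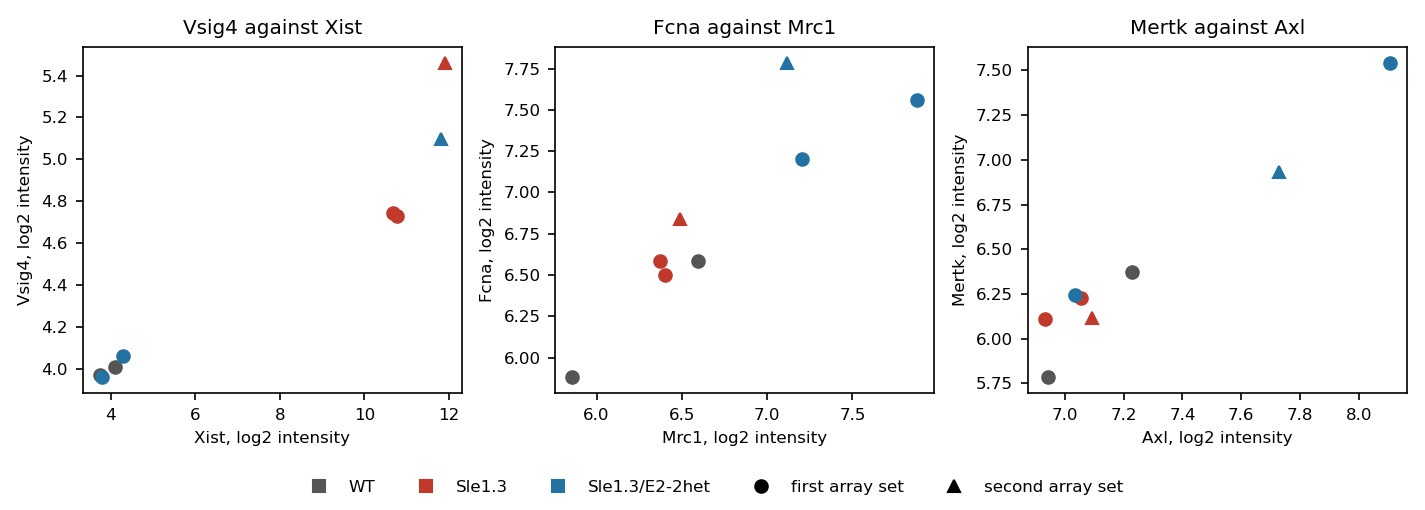
Log2 intensity of Vsig4 against Xist, Fcna against Mrc1, and Mertk against Axl in the 8 arrays. Colours mark genotype and triangles the second array set. Vsig4 falls into 4 arrays at 3.96 to 4.06 and 4 at 4.73 to 5.46, the 3 Sle1.3/E2-2het arrays lie uppermost for Fcna, and 2 of them stand apart for Mertk and Axl.

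The other scavenger receptors gave no call in the fit over all 8 arrays without a block. Of 15 tested (of 16 listed, among them Msr1, Cd36, Cd68 and Cd163), 0 passed by limma in each comparison. Their median differences were -0.01 in Sle1.3 against WT, 0.17 in Sle1.3/E2-2het against Sle1.3 and 0.16 in Sle1.3/E2-2het against WT. In that order, 1, 0 and 2 had an unadjusted p under 0.05. The smallest p values were those of Cxcl16 (-0.83) and Scarb2 (-0.55) in Sle1.3 against WT, Cd36 (0.50) and Cd163 (0.32) in Sle1.3/E2-2het against Sle1.3, and Cxcl16 (-0.76) and Ager (0.69) in Sle1.3/E2-2het against WT. In the first array set, Cxcl16 and Scarb2 were lower in both genotypes than in WT and Ager was higher in Sle1.3/E2-2het. More genes were called there, 15.8% of all genes in Sle1.3 and 34% in Sle1.3/E2-2het against WT.

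Other lectins and Siglecs of myeloid cells included genes that rose and genes that fell in Sle1.3 against WT. Of 24 tested (of 29 listed), 3 rose (Clec4a3 by 1.46, Siglece by 1.35 and Clec4a1 by 1.06) and 2 fell there. Those that fell were Cd209a (-1.63, SE 0.26, adjusted p = 0.0098), the dendritic cell relative of Cd209b, and Siglech (-0.78), a marker of plasmacytoid dendritic cells. In both other comparisons 0 of 24 passed, with medians of 0.20, -0.04 and 0.30 over the list. The first array set alone had 3 higher and 5 lower in Sle1.3 than in WT, and 4 higher and 3 lower in Sle1.3/E2-2het. Of all genes, 15.8% and 34% passed in these comparisons. Cd209a was 1.51 above Sle1.3 in Sle1.3/E2-2het (adjusted p = 0.0982) and passed with the replicate block (adjusted p = 0.0017), as did Cd209d (0.71, adjusted p = 0.430 without and 0.0104 with the block).

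Genes of apoptotic cell uptake, a list that includes ligands and partners of Axl, Mertk and Timd4, changed in both directions. Of 19 tested (of 24 listed), 2 rose and 3 fell in Sle1.3 against WT (5.88% of all genes passed), where Anxa1 (2.01), a phosphatidylserine-binding protein abundant in neutrophils, rose and Thbs1 (-1.90), Havcr2 (-1.29) and Abca1 (-1.03) fell. Against WT, 4 fell in Sle1.3/E2-2het (7.2% of all genes passed), Thbs1 (-1.61), Itgav (-1.37), Abca1 (-0.71) and Itgb3 (-0.65). Within the first set 2 were higher and 5 lower in Sle1.3 than in WT (15.8% of all genes passed). In Sle1.3/E2-2het, 2 were higher and 8 lower than in WT there (34% of all genes passed). In Sle1.3/E2-2het against Sle1.3, 0 passed without a block and 2 were lower with the replicate block. Among them was Havcr1 (-1.26, adjusted p = 0.0982 without and 0.0005 with the replicate block), the Tim family relative of Timd4. Blocked by array set, 1 gene of the list was lower, and in the first array set alone also 1. Gas6, the ligand of Axl and Mertk, differed by 0.16, 0.16 and 0.32, and Tyro3, the third kinase of that family, by 0.10, 0.19 and 0.28, none past the threshold, in the order of comparisons used above.

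Of 19 tested regulators and niche signals (of 22 listed), 1 rose and 1 fell in Sle1.3 against WT, 0 passed in Sle1.3/E2-2het against Sle1.3, and 2 rose and 1 fell in Sle1.3/E2-2het against WT. Spic, the transcription factor of red pulp macrophages, was 1.01 higher in Sle1.3/E2-2het than in WT (adjusted p = 0.0414). Against Sle1.3 it differed by 0.91 (adjusted p = 0.378, and 0.0386 with the replicate block). Maf, of the Maf motif, differed there by -0.56 (adjusted p = 1.00, and 0.031 with the replicate block). Blocked by array set, or in the first array set alone, 0 of the 19 genes passed in Sle1.3/E2-2het against Sle1.3. The chemokine gene Ccl19 was higher in Sle1.3 (1.38) and in Sle1.3/E2-2het (1.40) than in WT, and the NF-kB subunit gene Relb was lower (-0.76 and -0.72).

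Markers of red pulp macrophages also had higher values in Sle1.3/E2-2het, where Mrc1 and Fcna were high. Of 13 tested (of 15 listed), 6 rose against WT, led by the iron exporter gene Slc40a1 (1.74, adjusted p = 0.0096), the complement genes C1qb (1.302) and C1qc (1.23) and the heme oxygenase gene Hmox1 (1.17). Against Sle1.3, 0 passed without a block and 3 with the replicate block. These included Slc40a1 (1.22, adjusted p = 0.243 without and 0.0036 with that block) and Vcam1 (1.09, 0.236 and 0.0142). Blocked by array set, 2 genes of the list passed in that comparison. In Sle1.3 against WT, C1qb (1.68) and C1qc (1.37) rose. Without the second set 7 were higher in Sle1.3/E2-2het than in WT, 1 than in Sle1.3, and 3 in Sle1.3 than in WT. Of all genes, 34%, 0.528% and 15.8% passed in these comparisons. The summed linear intensity of the whole list was 1980 to 2997 in WT, 3058 to 4156 in Sle1.3 and 3618 to 5919 in Sle1.3/E2-2het.

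Markers of other cells moved with the same groups. Of 9 tested erythroid genes, 8 rose in Sle1.3/E2-2het against WT, with a median of 2.30 over the list. Against Sle1.3, 8 were higher with the replicate block, 2 when blocked by array set, and 4 within the first set. Of all genes, 1.75%, 0.615% and 0.528% passed in these fits. The erythroid sum was 1036 to 1373 in WT, 1230 to 3597 in Sle1.3 and 3746 to 8555 in Sle1.3/E2-2het. Of 12 neutrophil genes, 11 rose in Sle1.3 and 10 in Sle1.3/E2-2het against WT, and their sum was 2087 to 3034, 8554 to 28430 and 9324 to 25900. Of 9 genes of dividing cells, 9 and 2 rose. Of 8 natural killer cell genes, 3 fell in Sle1.3 against WT and 5 were higher in Sle1.3/E2-2het than in Sle1.3 with the replicate block (0 with the array set block or in the first array set), while 1 of 9 B cell and 1 of 9 T cell genes fell in Sle1.3 against WT. Their part in the values of the 10 macrophage genes was not tested.

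Monocyte and dendritic cell markers were followed because Adamdec1, Axl and Mrc1 are also transcribed in such cells. Of 10 monocyte genes, 3 rose in Sle1.3 against WT, and Fcgr4, a marker of patrolling monocytes, rose by 2.68 on the log2 scale there and changed by -2.33 in Sle1.3/E2-2het against Sle1.3 (adjusted p = 0.0432). The monocyte sum was 4166 to 4290 in WT, 3944 to 5445 in Sle1.3 and 3514 to 4600 in Sle1.3/E2-2het. The sum of 10 conventional dendritic cell genes was 6455 to 6492, 4150 to 4805 and 4715 to 6827, and 1 fell in Sle1.3 against WT. In the first array set alone, the Sle1.3/E2-2het sum of this list was 4715 to 4984. Cd8a stood both on this list and on the T cell list. Stromal markers gave 0 calls in 10 genes without a block, and 3 (Lyve1, Col1a1 and Col1a2) were higher in Sle1.3/E2-2het than in WT in the first array set, with sums over all arrays of 858.6 to 965.1, 931.8 to 1213 and 917.3 to 1166. Of 11 interferon-stimulated genes, followed because Siglec1 is one in many tissues, 1 rose in Sle1.3 against WT (Oas1a, 0.87), and 1 rose and 1 fell (Ifit1, -0.48) in Sle1.3/E2-2het against WT. No marker had an intensity of 0, and the table holds no call of detection. The part of these cells in the values was not tested.

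**Figure D4:**
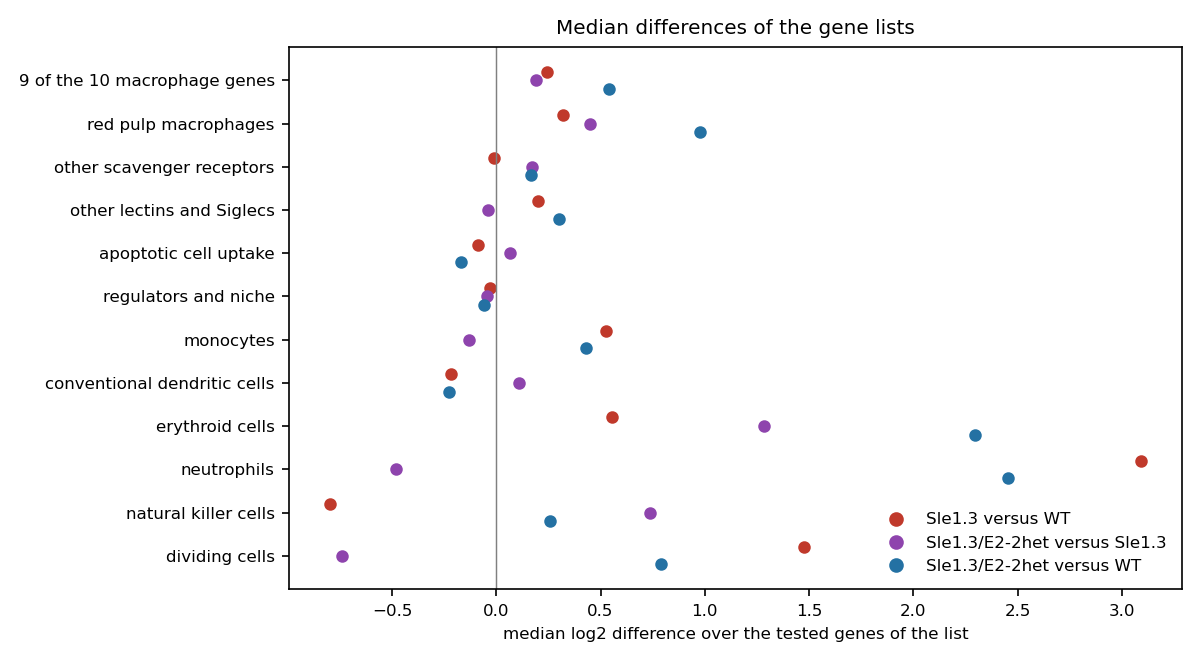
Median log2 difference over the tested genes of each list (horizontal axis) for the 3 genotype comparisons, 1 coloured point each. The 9 tested of the 10 macrophage genes reach 0.54 and the red pulp list 0.97 in Sle1.3/E2-2het against WT, while the erythroid and neutrophil lists reach 2.30 and 2.45.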

How the data were processed

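The authors deposited 1 table of 35556 probe sets with an intensity on a linear scale for each of 8 arrays. RMA and Affymetrix Expression Console were used per the submitters' processing notes, with versions and build not given in the sources used here. Log2 of the deposited values was taken without further scaling. Of the probe sets, 21789 were assigned to 1 gene symbol in the platform annotation, 1621 to several and 12146 to none listed, and the row of highest mean stood for each of 19938 genes. Arrays give no count depth, and their number limits the precision.

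Groups follow the titles. In R 4.3.3, limma 3.58.1 (lmFit, eBayes, two-sided) fitted genotype to all 8 arrays at once, with Benjamini-Hochberg adjustment over 14953 genes and a threshold of 0.05. In the fit without a block, the p-values measure the spread between arrays, each of 1 mouse. That spread holds differences between the array sets as well as between mice. The script was tested on simulated data. Labelled sex was left out because in both Sle1.3 genotypes, and with opposite sign, it divides the arrays as the array set does. Same-numbered Sle1.3 and Sle1.3/E2-2het arrays deviated together from their group means (correlations 0.573, 0.369 and 0.618), so that pairing comes from the data. Both replicate 3 arrays form the second array set, so these correlations cannot tell pairing by number from the array set. The replicate block was fitted to all 8 arrays. WT replicates 1 and 2 thus shared a block with same-numbered arrays and entered the estimate of the spread. For Sle1.3/E2-2het against Sle1.3, blocked values are given where they change a call.

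The 10 genes and the lists were chosen with earlier results of these data known. All 10 are reported. From a list, at most 4 genes past the threshold with the largest differences are named, or the 2 of smallest p where none passed, beside a few named for their role or for passing with the block. Like genes are the 3 of highest Pearson correlation over the first array set. Alternatives were quantile normalization, median centring, an offset of 16, no filter, averaged probe sets, a sex term, replicate and array set blocks, the first set alone and each array left out. The contrast of array sets and the fits of Vsig4 with a block or in the first set were added after seeing the data. Protein sequences were not used here.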

Additional observations from a re-analysis of the deposited data

How the results depend on the processing

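Of 459 values of single genes under the alternatives, 421 kept their direction and side of the threshold, 9 newly passed, 10 no longer passed and 19 changed sign. In Sle1.3 against WT, the 879 genes called became 2508 with median centring, 538 without the filter, 199 with labelled sex, 4410 with the replicate block, 3585 under the array set block, 2367 in the first array set, and 2 to 1659 with 1 array left out. The 1 of the 9 macrophage genes called became 0 to 1 with 1 array left out. In Sle1.3/E2-2het against Sle1.3, 2 genes became 19 with quantile normalization, 26 with median centring, 0 with the offset, without the filter or with labelled sex, 262 with the replicate block, 92 blocked by array set, 79 in the first set and 0 to 80 with 1 array left out. The macrophage genes called went from 0 to 3 with the replicate block and to 2 when blocked by array set. In Sle1.3/E2-2het against WT, 1076 genes became 4131 with median centring, 619 without the filter, 492 with labelled sex, 6008 with the replicate block, 5092 blocked by array set, 5086 in the first set and 5 to 2619 with 1 array left out. In that comparison the 2 macrophage genes called became 1 without the filter, 4 with the replicate block and 3 blocked by array set. They became 3 in the first set and 0 to 2 with 1 array left out. WT shares replicate numbers 1 and 2 only, with correlations of -0.0768 and 0.214 with Sle1.3 and 0.151 and 0.16 with Sle1.3/E2-2het, so numbers were not taken to pair WT arrays. The replicate block newly passed Marco (adjusted p = 0.0281) and Mertk (0.0358) in Sle1.3/E2-2het against WT and Vsig4 (0.00437) in Sle1.3 against WT. The cause was not tested. Sign changes touched differences near 0: Mertk in Sle1.3 against WT (-0.00066 with quantile normalization, -0.052 with median centring), Siglec1 (-0.029, -0.019 and, with labelled sex, -0.010) and Timd4 (-0.022 with median centring) between the Sle1.3 genotypes, and Cd209b in Sle1.3/E2-2het against WT (-0.0016 in the first set). With 1 array left out, Sle1.3 against WT ranged from -0.18 to 0.56 for Mrc1, -0.20 to 0.085 for Axl and -0.22 to 0.37 for Mertk. Sle1.3/E2-2het against Sle1.3 ranged from -0.21 to 0.31 for Siglec1, -0.43 to 0.24 for Cd209b and -0.14 to 0.16 for Timd4, and Sle1.3/E2-2het against WT from -0.0016 to 0.56 for Cd209b.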
